A study of Mus musculus with 7 samples.

Results

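The genes described here are the inflammasome sensors Nlrp3, Nlrc4 and Aim2, the adaptor Pycard, the pore and membrane rupture genes Gsdmd and Ninj1, and the cytokine genes Il1b, Il1a, Il18 and Il1rn. They were chosen by symbol, without caspases, and all 10 are among the 10550 genes of the deposited count table. Kupffer cells, macrophages that reside in the liver, were sorted as CD45+ CD11b-low F4/80+ Ly6G- Ly6C- cells from untreated male C57BL/6 mice aged 8 weeks. The 4 control libraries came from Commd10 fl/fl mice, which carry loxP-flanked Commd10 alleles and no Cre. The 3 Commd10-deficient libraries (labelled Clec4FDCommd10) came from mice with the same alleles, littermates of the controls in the series description, and with Cre from the Clec4f locus, which is active in Kupffer cells. Cre and the altered Clec4f allele therefore cannot be told apart from the loss of Commd10. By their titles the controls fall in a first set (replicates 1 and 2, control set 1) and a second (replicates 3 and 4, control set 2), and what separates the sets is not said. Whether each library came from its own animal is not said, so the tests set differences against a spread between libraries that may be technical.

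An inflammasome is a cytosolic complex in which a sensor, often through the adaptor ASC, activates caspase-1. Caspase-1 cleaves the precursors of IL-1beta and IL-18 into active cytokines and frees the pore-forming part of gasdermin D, and ninjurin-1 then ruptures the plasma membrane. Il1b is induced by NF-kB signals before any such cleavage, and a count of RNA measures neither cleavage nor release.

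Kupffer cell markers were strong in all 7 libraries. The 13 listed markers summed to between 40117 and 44698 CPM (counts scaled to a common library size with edgeR's TMM factors) in the controls. In the Commd10-deficient libraries they summed to between 45671 and 49752 CPM. Of these 13, Marco, a scavenger receptor gene, was called lower (log2 fold change -1.78, edgeR adjusted p = 0.0164) and 0 were called higher. At an unadjusted edgeR p under 0.05 there were 6 of the 13, against 24.2% of all tested genes. Of these 6, Vsig4 (0.70), Adgre1 (0.77), Cd163 (1.09) and Slc40a1 (1.98) were up and Marco and Id3 (-0.71) down. Depth was very uneven, at 3207144 and 4270240 counts for control set 1, 230942 and 267553 for control set 2, and 105462 to 124016 in the Commd10-deficient libraries. By table totals, 3 counts amounted to 0.703 CPM at the greatest depth and 28.4 CPM at the least. The targeted gene, Commd10, was counted 130 to 167 times per library in control set 1, 0 to 4 times per Commd10-deficient library and 1 to 7 times per library of control set 2, too few to test, and a 3′ tag outside the deleted part would not check the genotype.

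The 250 bases before the annotated start of Il1b, of its neighbour on chromosome 2 Il1a, and of Ninj1 are shown because Il1b and Ninj1 are the members whose Commd10-deficient libraries lay above every control, and Il1a encodes the other agonist of the same receptor. They are read 5′ to 3′ on the strand of the gene from RefSeq (GRCm38.p6, the mm10 build), at chr2:129371140-129371389 (minus strand), chr2:129309973-129310222 (minus strand) and chr13:49187279-49187528 (plus strand). For Ninj1 the RefSeq start lies inside the GENCODE gene span given below, which begins at 49187485, so the last bases of its window are within that span. Capitals mark matches to the 5 motifs searched on both strands.
Il1b: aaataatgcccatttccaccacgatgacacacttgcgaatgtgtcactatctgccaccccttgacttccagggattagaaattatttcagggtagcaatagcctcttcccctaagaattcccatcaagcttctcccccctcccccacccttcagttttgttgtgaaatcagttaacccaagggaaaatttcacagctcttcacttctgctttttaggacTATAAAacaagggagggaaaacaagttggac
Il1a: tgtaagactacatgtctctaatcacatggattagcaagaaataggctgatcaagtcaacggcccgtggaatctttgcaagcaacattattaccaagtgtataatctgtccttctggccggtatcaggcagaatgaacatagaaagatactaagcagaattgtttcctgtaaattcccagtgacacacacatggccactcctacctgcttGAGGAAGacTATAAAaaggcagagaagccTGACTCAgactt
Ninj1: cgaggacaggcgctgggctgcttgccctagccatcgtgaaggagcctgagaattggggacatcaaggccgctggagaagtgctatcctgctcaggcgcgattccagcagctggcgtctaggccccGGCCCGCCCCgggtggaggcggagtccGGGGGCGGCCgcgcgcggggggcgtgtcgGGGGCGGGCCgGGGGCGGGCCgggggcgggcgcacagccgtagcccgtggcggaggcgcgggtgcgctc

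The motif of NF-kB, the inducible factor downstream of Toll-like and IL-1 receptors, was searched as GGGNNNNNCC. The motif of AP-1, the Fos and Jun factor family induced by the same receptors, was searched as TGANTCA. That of the C/EBP family, factors of myeloid and liver cells, was searched as TTGCNNAA. The motif of PU.1, the factor that macrophages depend on for their identity, was searched as GAGGAAG. The TATA box, the core promoter element bound by TATA-binding protein, was searched as TATAAA. Il1b held the TATA box letters beginning at position -31 from the start, and no other match. Il1a held the TATA box letters at -32, a PU.1 match at -41 and an AP-1 match at -12. Ninj1 held 4 NF-kB matches, 1 of them on the other strand, and no TATA box letters, and no match in these 3 windows overlapped another. Over 27025 promoters of the same length, 13% held the TATA box letters, 45.4% the NF-kB, 10.4% the PU.1, 9.55% the C/EBP and 6.87% the AP-1 motif. Of the 10 members 9 had a promoter entry, with 3 starts for Il1rn and 2 for Nlrp3, and Gsdmd had no entry. A match describes letters and not a bound site.

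Il1b was the member that rose in Commd10-deficient Kupffer cells, by 0.99 on the log2 scale. It encodes IL-1beta, the inflammatory cytokine that caspase-1 matures, and lies on chromosome 2 from 129364570 to 129371139 (mm10, minus strand). Its level was 1004, 1029, 910 and 933 CPM in control replicates 1 to 4 (4584, 3591, 195 and 228 counts). In Commd10-deficient replicates 1 to 3 it was 1938, 1934 and 1908 CPM (226, 207 and 236 counts). All 3 Commd10-deficient libraries lay above all 4 controls, and the control sets lay close together. Every Commd10-deficient library was also shallower than every control, so depth and genotype cannot be told apart. The edgeR log2 fold change of Il1b was 0.99 (SE 0.23, adjusted p = 0.0256), with means going from 969 ± 56.7 (SD, n = 4) to 1926 ± 16.1 CPM (SD, n = 3). Counting error alone would give an SD of about 129 CPM in the Commd10-deficient libraries, so the SD of 16.1 understates their uncertainty. In bulk samples a change in the number of cells of a type and in RNA per cell cannot be told apart. In rank of level among all genes, Il1b stood at 136 to 180 in the controls and at 58 to 63 in the Commd10-deficient libraries.

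Il1b was called against either control set. In a model with 3 levels it was 0.92 above control set 1 (SE 0.20, edgeR adjusted p = 0.00376) and 1.06 above control set 2 (SE 0.20, adjusted p = 0.00249) on the log2 scale. The control sets were 0.14 apart (SE 0.21, adjusted p = 0.676). Without Commd10-deficient replicate 1, 2 or 3 the estimate was 0.95, 0.96 and 0.97, with edgeR adjusted p = 0.151, 0.137 and 0.0718, so the call was lost while the size was nearly the same. With no filter on low counts it was 0.76 (adjusted p = 0.0909) against all controls and 0.62 (adjusted p = 0.0562) against control set 1.

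**Figure D1:**
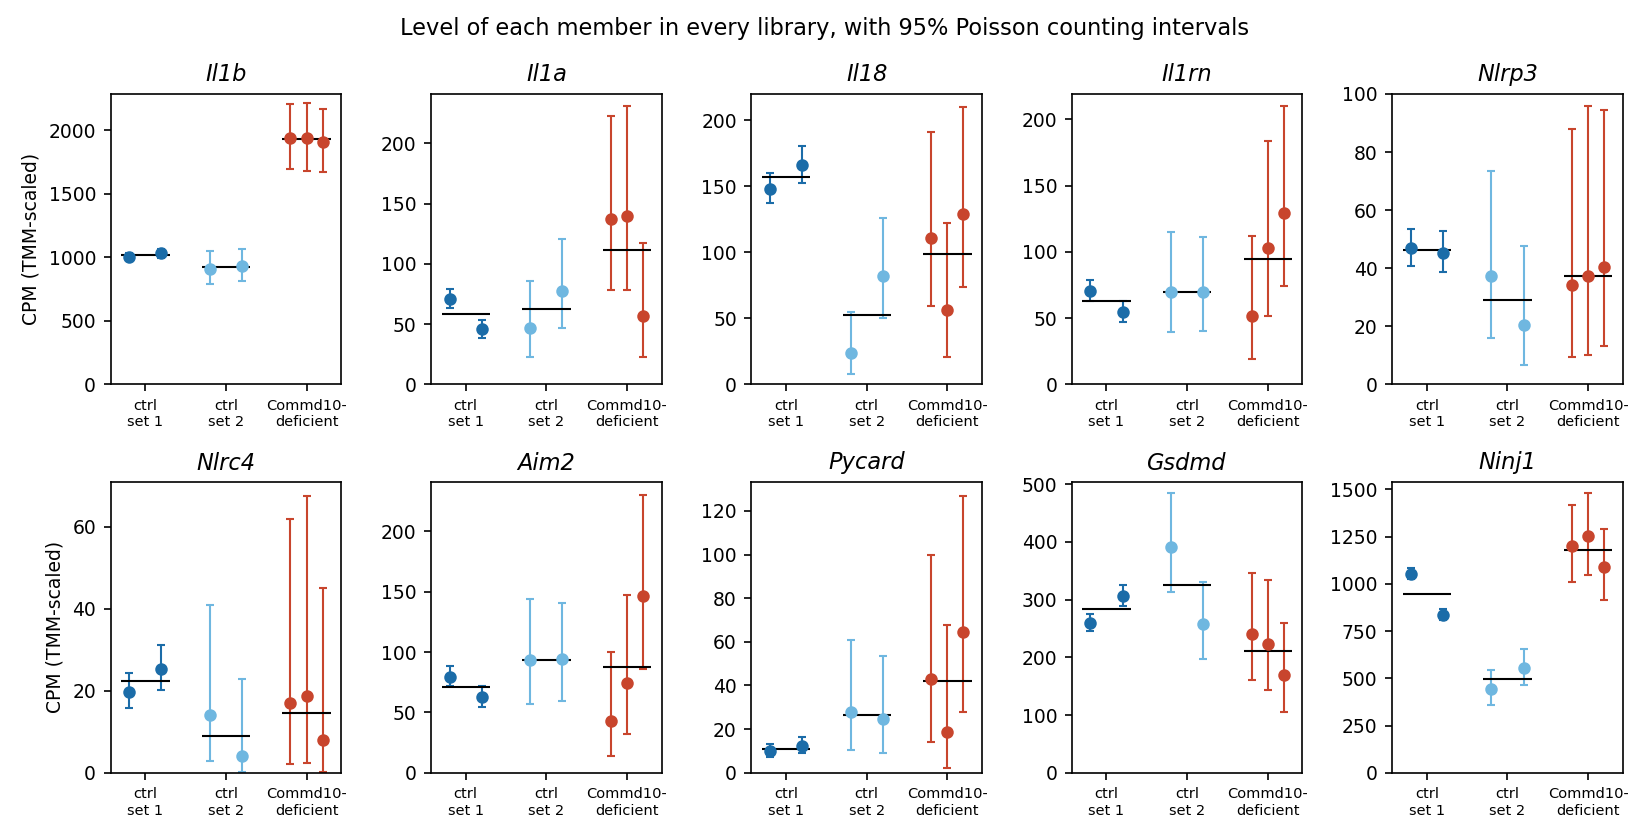
Level of each member in CPM (linear axes from 0) in every library, as points with 95% exact Poisson intervals, by control set 1, control set 2 and Commd10-deficient, with group means as lines. Il1b sits between 1908 and 1938 CPM in the Commd10-deficient libraries and between 910 and 1029 CPM in the controls, while the intervals of the low members are wide in the shallow libraries.

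Of the 10 members, 7 had enough counts to be tested, 1 was called higher and 0 lower at an edgeR adjusted p under 0.05. Over all 3412 tested genes, 6.04% were called, 3.46% higher and 2.58% lower. At an unadjusted p under 0.05 there were 2 members, against 24.2% of all tested genes. DESeq2 and limma-voom also called Il1b alone among the members, where they called 10.9% and 5.86% of all tested genes. Groups did not overlap for 3 of the tested members, 2 higher and 1 lower, against 13.2% of tested genes higher and 11.8% lower. The median log2 fold change of the tested members was 0.53, and that of all tested genes was -0.05. Without Commd10-deficient replicate 1 or 2 edgeR called 0 genes of all tested, and without replicate 3 it called 60. A p that misses the threshold at this depth does not show that levels were alike.

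The other IL-1 family cytokine genes had wider spreads than Il1b. Il1a, which encodes the alarmin IL-1alpha, is on chromosome 2 from 129299610 to 129309972. It was at 70.9, 45.6, 46.7 and 77.7 CPM in control replicates 1 to 4 and at 137, 140 and 56.6 CPM in the Commd10-deficient libraries. Commd10-deficient replicates 1 and 2 were above every control and replicate 3, with 7 counts, lay among them. The log2 fold change was 0.88 (SE 0.42, edgeR adjusted p = 0.22), and it was 0.23 with an offset for GC and length (adjusted p = 0.795).

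Il1rn encodes the IL-1 receptor antagonist, which occupies the receptor without signalling, and is on chromosome 2 from 24336853 to 24351494. It was at 70.3, 54.8, 70.0 and 69.5 CPM in the controls and at 51.4, 103 and 129 CPM in the Commd10-deficient libraries. The groups overlapped, with 6 to 16 counts in each Commd10-deficient library, and the log2 fold change was 0.53 (SE 0.40, edgeR adjusted p = 0.446). With the GC and length offset its sign turned, to -0.14 (adjusted p = 0.888). The ratio of Il1b to Il1rn counts within a library does not depend on scaling. It was 14.3, 18.8, 13 and 13.4 in the controls and 37.7, 18.8 and 14.8 in Commd10-deficient replicates 1 to 3. Only replicate 1 stood well above the controls. The mean log2 ratio was 0.52 higher in the Commd10-deficient libraries (4.38 ± 0.67, SD, n = 3, against 3.86 ± 0.26, SD, n = 4; exact two-sided permutation p = 0.229, adjusted over both ratios 0.343). Without Commd10-deficient replicate 1 the difference was 0.15, and leaving out any other library gave 0.46 to 0.79. With 3 against 4 libraries the smallest p this test allows is 0.0571.

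Il18 encodes the IL-1 family cytokine that drives interferon-gamma production by lymphocytes, and is on chromosome 9 from 50554827 to 50581840. Its level was 148 and 166 CPM in control set 1, 23.3 and 81.8 CPM in control set 2, and 111, 56.0 and 129 CPM in the Commd10-deficient libraries. The Commd10-deficient libraries lay between the control sets or within control set 2, so the sign depended on the controls. Against control set 1 the log2 fold change was -0.65 (edgeR adjusted p = 0.274) and against control set 2 it was 0.90 (adjusted p = 0.218). The control sets themselves differed by 1.54 (SE 0.44, adjusted p = 0.0231). The mean log2 ratio of Il1b to Il18 was 0.80 higher in Commd10-deficient libraries (4.30 ± 0.61, SD, n = 3, against 3.51 ± 1.16, SD, n = 4; exact permutation p = 0.343, adjusted 0.343). It was 1.60 against control set 1 alone and -0.01 against control set 2 alone. Leaving out 1 library gave from 0.45 (without Commd10-deficient replicate 2) to 1.34 (without control replicate 3), with 0.55 without control replicate 1 and 0.51 without control replicate 2.

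Ninj1, the gene of the membrane rupture protein, had the highest control level after Il1b, and is on chromosome 13 from 49187485 to 49196244. Levels count 3′ tags and are not divided by gene length. Ninj1 was at 1054 and 837 CPM in control set 1, 443 and 552 CPM in control set 2, and 1200, 1252 and 1091 CPM in the Commd10-deficient libraries. Commd10-deficient libraries were above all controls, but control replicate 1 lay just under the lowest of them. The log2 fold change against all controls was 0.70 (SE 0.31, edgeR adjusted p = 0.176).

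For Ninj1 the outcome differed with the control set used. It was 1.24 above control set 2 (SE 0.23, edgeR adjusted p = 0.00206) and 0.32 above control set 1 (SE 0.22, adjusted p = 0.327), and control set 1 was 0.92 above control set 2 (SE 0.24, adjusted p = 0.0132). Among the 7 tested members, 1 was called against control set 1 (Il1b), 2 against control set 2 (Il1b and Ninj1) and 2 between the control sets (Il18 and Ninj1). Of all tested genes, 19.3% were called against control set 1, 19.1% against control set 2 and 18.7% between the control sets. With control set 2 as the only controls 31.7% of tested genes were called. These contrasts share libraries and are given side by side only.

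**Figure D2:**
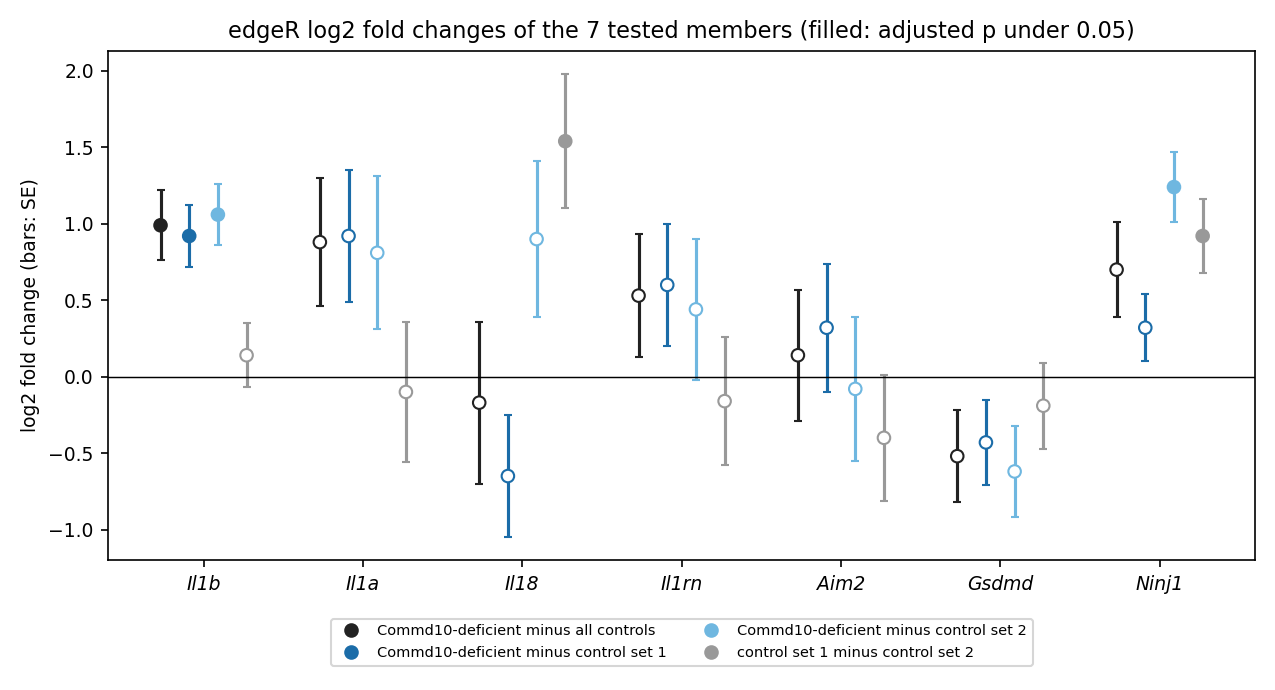
Log2 fold changes from edgeR (points) with their SE (bars) for the 7 tested members, against all controls and either control set, and for control set 1 against 2; filled points have an adjusted p under 0.05. Il1b is filled in all 3 contrasts with Commd10-deficient libraries, Ninj1 in 2 of the contrasts and Il18 only between the control sets.

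Immediate early and NF-kB genes also separated the control sets. The 22 immediate early genes in the table summed to between 6913 and 8346 CPM in control set 1, 2740 to 4065 CPM in control set 2 and 4592 to 5444 CPM in the Commd10-deficient libraries. The 24 NF-kB priming genes, which include targets such as Tnf and Nfkbia, summed to 3233 to 4371, 1931 to 2002 and 2401 to 3299 CPM in the same order. Their part in the levels of Il1b, Il18 and Ninj1 was not tested. Il1b averaged 1017 CPM in control set 1 and 921 CPM in control set 2.

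Gsdmd encodes gasdermin D, whose freed N-terminal part forms membrane pores, and is on chromosome 15 from 75862327 to 75867408. It was at 260, 307, 392 and 258 CPM in the controls and at 240, 224 and 170 CPM in the Commd10-deficient libraries. All Commd10-deficient libraries were below all controls, by a narrow margin. The log2 fold change was -0.52 (SE 0.30, edgeR adjusted p = 0.312), and neither the -0.43 relative to control set 1 nor the -0.62 relative to control set 2 was called.

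Among the sensors, Aim2, which binds cytosolic double-stranded DNA, had enough counts to be tested. It was at 79.5, 62.8, 93.3 and 94.1 CPM in the controls and at 42.9, 74.7 and 146 CPM in the Commd10-deficient libraries. These 3 libraries spanned the whole control range, and the log2 fold change was 0.14 (SE 0.43, edgeR adjusted p = 0.873). The gene is on chromosome 1 from 173350879 to 173466040.

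Nlrp3, the sensor of ion fluxes and membrane damage, Nlrc4, the sensor that acts with NAIP proteins on bacterial flagellin and secretion systems, and Pycard, the gene of ASC, had too few counts to be tested. They lie on chromosome 11 from 59541568 to 59566956, chromosome 17 from 74425438 to 74459142 and chromosome 7 from 127989708 to 127993867. Nlrp3 was at 46.9 and 45.3 CPM in control set 1, 37.3 and 20.5 CPM in control set 2 and 34.3, 37.4 and 40.4 CPM in the Commd10-deficient libraries (4, 4 and 5 counts). The pooled counts gave 1.32 times the level of control set 2, with an exact 95% interval of 0.564 to 3.09 for counting error only. Relative to control set 1 the Nlrp3 ratio was 0.81 (0.427 to 1.4). Nlrc4 was at 19.7 and 25.2 CPM in control set 1, the group deep enough for a firm level. For Nlrc4, replicates 1 to 3 of the Commd10-deficient group had 2, 2 and 1 counts against 3 and 1 in control set 2, a ratio of 1.65 (0.355 to 8.32), and the ratio to control set 1 was 0.651 (0.209 to 1.55), so no difference was detectable at this depth. Levels of both sensors overlapped between the groups.

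Pycard was low in control set 1, at 9.85 and 12.3 CPM, and was at 28.0 and 24.5 CPM in control set 2. In Commd10-deficient replicates 1 to 3 it was at 42.9, 18.7 and 64.7 CPM (5, 2 and 8 counts). The Commd10-deficient libraries lay on both sides of control set 2 and above control set 1. Pooled counts gave a level 3.95 times that of control set 1 (exact 95% interval 2.12 to 6.88) and 1.65 times that of control set 2 (0.721 to 3.86). With no filter on low counts, where 4.87% of all genes were called, the edgeR log2 fold changes against all controls were 1.23 for Pycard (adjusted p = 0.383), -0.33 for Nlrp3 (adjusted p = 0.814) and -0.60 for Nlrc4 (adjusted p = 0.751). Antisense genes overlap exons of Il1b, Il1a and Pycard in the annotation. The strand setting of the counting is not given, so some of their reads could be antisense, and how many was not measured. Gm14039 lies on the strand of Il1b within 2 kb past its 3′ end. Whether reads of Gm14039 were counted for Il1b was not tested.

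The members together summed to between 3743 and 3858 CPM in the Commd10-deficient libraries, above the 2058 to 2764 CPM of the controls. Il1b and Ninj1 made up 80.1% to 82.6% of that sum in Commd10-deficient libraries and 65.8% to 74.5% in controls, so the sum mostly follows these genes. The lowest sums were those of control set 2, at 2058 and 2115 CPM.

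**Figure D3:**
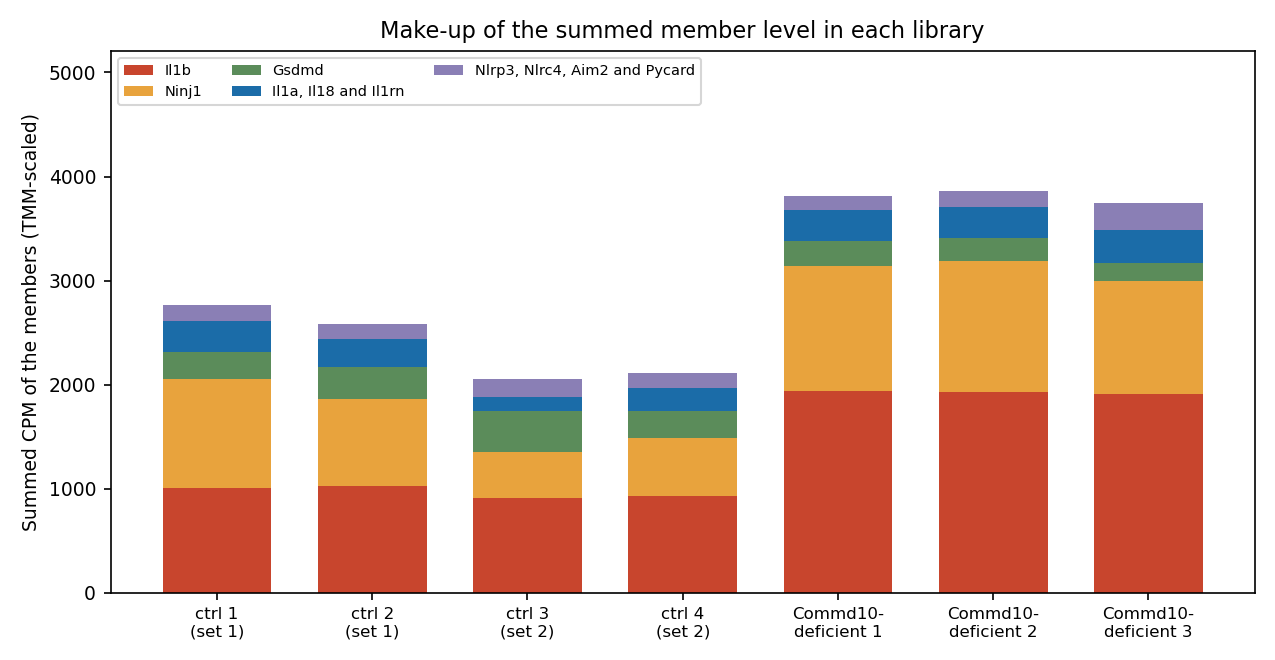
Stacked levels of the members in each library (CPM, axis from 0), for Il1b, Ninj1, Gsdmd, the other cytokine genes together and the sensors with Pycard together. The Il1b part is larger in each Commd10-deficient library (1908 to 1938 CPM) than in any control, and the Ninj1 part is smallest in control set 2 (443 and 552 CPM).

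Markers of other cells that make IL-1 were examined, and their part in the results was not tested. The sort gate removed Ly6G+ and Ly6C+ cells. Of 14 neutrophil markers, 7 are in the table and their levels summed to between 154 and 275 CPM in the Commd10-deficient libraries, 156 and 194 CPM in control set 1 and 57.3 to 103 CPM in control set 2. S100a8, a calcium-binding protein gene abundant in neutrophils, was at 17.1, 18.7 and 72.8 CPM in the Commd10-deficient libraries (2, 2 and 9 counts) and at 3.28, 7.17, 4.67 and 0 CPM in the controls. All 3 Commd10-deficient libraries thus lay above all controls for S100a8, on few counts. S100a9, its partner, was at 17.1, 9.34 and 80.8 CPM against 8.32, 20.1, 4.67 and 16.4 CPM, and these groups overlapped. Replicate 3, the highest for both, was also the Commd10-deficient library with the highest Il1rn, Aim2, Il18, Pycard and Nlrp3. The same library had the lowest Il1b, Il1a, Ninj1, Gsdmd and Nlrc4 of its group. Ngp, a neutrophil granule gene, was at 0 in every library but control replicate 2, which held 6 counts. Of 12 monocyte markers, 9 are in the table and summed to between 850 and 1055 CPM in the Commd10-deficient libraries and between 770 and 1728 CPM in the controls. Ccr2, the chemokine receptor of inflammatory monocytes, was counted 3, 1 and 0 times in Commd10-deficient replicates 1 to 3, and 6, 5, 0 and 1 times in control replicates 1 to 4. In CPM these Ccr2 counts were 25.7, 9.34 and 0 against 1.31, 1.43, 0 and 4.09, and the groups overlapped. Chil3 was at 0 in the Commd10-deficient libraries and held 1, 6, 1 and 1 counts in the controls (0.219, 1.72, 4.67 and 4.09 CPM). In the deepest Commd10-deficient library 3 counts amounted to 24.2 CPM, so counts of 0 for Chil3 there do not show a lower level.

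Genes that act with the members were examined in 5 further lists of 70 genes, of which 28 were tested, and 5 rose and 2 fell, where 3.46% of all tested genes were called higher and 2.58% lower. The 70 include 6 other IL-1 family ligands, such as Il33, that are not analysed here. All 5 rises were among 10 tested caspase, pore and guanylate-binding protein genes, whose median was 1.28. The initiator and inflammatory caspases Casp1 (log2 fold change 1.72, edgeR adjusted p = 0.0256), Casp4 (1.78, adjusted p = 0.027) and Casp8 (1.49, adjusted p = 0.0183) are 3 of them. Gbp3, a guanylate-binding protein of the interferon-induced family, rose from 127 ± 57.2 to 358 ± 21.9 CPM (1.43, SE 0.35, adjusted p = 0.0308). Vps4b, the ATPase of the ESCRT machinery that repairs gasdermin-damaged membrane, rose from 29.7 ± 3.63 to 98.0 ± 25.4 CPM (1.70, SE 0.39, adjusted p = 0.0254). Control set 1 differed from control set 2 for Casp4 (-1.40, edgeR adjusted p = 0.00819) and Gbp3 (1.16, adjusted p = 0.015). Casp4 was 2.55 above control set 1 and 1.15 above control set 2. Gbp3 was 1.03 above control set 1 and 2.19 above control set 2, so both sizes depended on the controls used. Irgm1 (0.85), Gbp2 (0.62) and the ESCRT gene Chmp4b (-0.42) did not pass. When edgeR was given a GC and length offset (3.25% of all tested genes called), Casp1 (1.17), Casp4 (0.93), Gbp3 (1.12) and Vps4b (1.06) were no longer called, while Il1b was (0.88, adjusted p = 0.0425). Without Commd10-deficient replicate 1, 2 or 3 none of these 5 genes was called, except Casp8 without replicate 3. Gbp3 also lost its call without control replicate 3 and Vps4b without control replicate 1 or with no filter on low counts (1.45, adjusted p = 0.0718).

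Regulators of NLRP3 gave both falls. P2rx4, an ATP-gated ion channel, went from 477 ± 132 CPM down to 122 ± 41.9 CPM (-1.94 on the log2 scale, SE 0.36, edgeR adjusted p = 0.0148), at -1.56 relative to control set 1 and -2.26 relative to control set 2 (SD after each mean, n = 4 controls and n = 3). Txnip, a thioredoxin-binding protein reported to bind NLRP3, went from 522 ± 241 CPM down to 196 ± 6.77 CPM (-1.43, SE 0.39, adjusted p = 0.0432). Its control sets differed by 1.16 (adjusted p = 0.00787), and the fall was -0.72 against control set 2 (adjusted p = 0.0801). Both calls were lost without any 1 of the Commd10-deficient libraries, and that of Txnip also without control replicate 1 (-1.20, adjusted p = 0.0637) or in limma-voom (adjusted p = 0.125). P2rx7, the ATP receptor best known for NLRP3 activation, was at 0.23, the kinase gene Syk at 0.45 and Trim30a at 1.68 (adjusted p = 0.0537). In this list 4 of 6 tested genes did not pass, and the median was 0.06.

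Other sensors, receptors and signalling genes gave 0 edgeR calls. Of 6 tested sensor and adaptor genes 2 had an unadjusted p under 0.05, Ifi204 (0.85) and Mndal (0.65), both of the Aim2-like family, and Ifi203 was at 0.48. Near-identical copies make the Ifi20x and Naip genes uncertain. Of 6 tested receptor and signalling genes 0 had an unadjusted p under 0.05, with the kinase gene Irak1 at 0.49, Il18bp, which encodes the decoy that binds IL-18, at -0.30 and Tab2 at -0.23. In the NF-kB list, Icam1 fell (-1.46, adjusted p = 0.024) and 17 of 18 tested genes did not pass, among them Nfkbiz (1.51), Tnf (-0.61) and Tnfaip3 (0.68). In the immediate early list Klf2 fell (-2.19, adjusted p = 0.0164), 1 of 20 tested, and Ier2 (-1.24), Jun (-1.05) and Fos (0.84) did not pass.

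**Figure D4:**
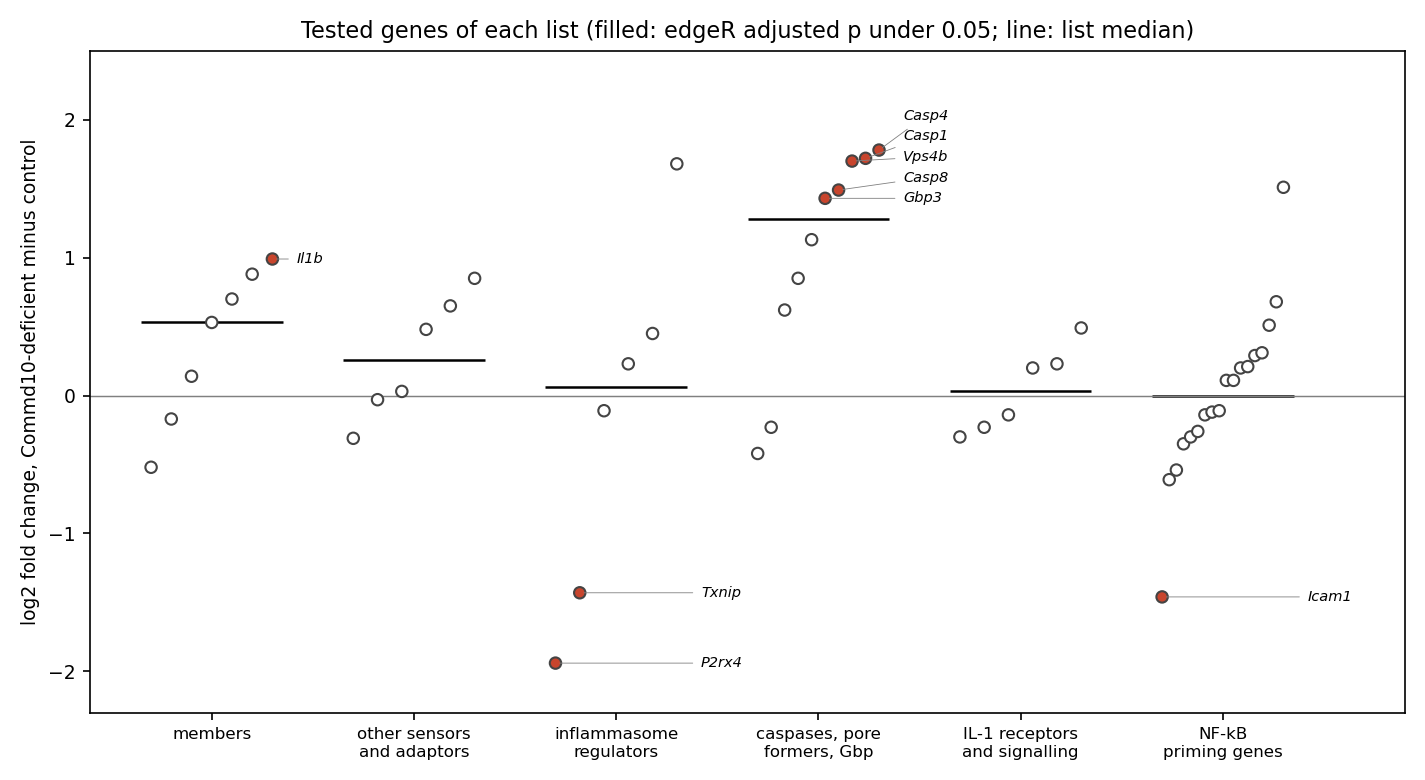
Log2 fold changes (Commd10-deficient minus control) of the tested members and of the tested genes in 5 other lists as points, the immediate early list not being drawn, filled where the edgeR adjusted p is under 0.05, with the list median as a line. Il1b is the filled member at 0.99, 5 genes of the caspase and pore list are filled above 0, and P2rx4, Txnip and Icam1 are filled below 0.

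The genes whose pattern over the 7 libraries was most like that of Il1b, outside the lists, were Ywhab, Hpgd, Rinl, Acox3 and Xbp1. Likeness was the root mean square difference of centred log2 CPM, which ran from 0.0959 for Ywhab to 0.138 for Xbp1 among 3306 genes. Ywhab, a 14-3-3 protein gene, averaged 375 ± 31 CPM (SD, n = 4) over the controls and 834 ± 18.9 CPM (SD, n = 3) over Commd10-deficient libraries. Hpgd, which encodes the prostaglandin-degrading enzyme, was at 1496 ± 97.8 and 2647 ± 265 CPM, and Xbp1, a transcription factor of the unfolded protein response, at 195 ± 10.8 and 470 ± 16.6 CPM. These genes share the libraries, their depth and the split by genotype with Il1b.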

How the data were processed

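Bulk MARS-Seq, which tags the 3′ end of polyadenylated RNA with unique molecular identifiers (UMIs), was run on 7 libraries, per the labels' protocols. The authors deposited raw counts per gene, per the file headers, with UMI correction given by the table's name. A normalized signal was also deposited by the authors, per the file headers; it equals each raw column divided by 1 factor per library and was used only for that check. Tools named in the submitters' processing notes are cutadapt, HTSeq and DESeq2, with mm10 as the build. Their versions, the aligner and the strand setting: not given in the sources used here. There were 0 unmatched columns of per-sample values.

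Counts were tested with edgeR 4.0.16 (quasi-likelihood, TMM factors, robust) in R 4.3.3 after its default expression filter, which left 3412 of 10550 genes. P-values were adjusted by Benjamini-Hochberg over the genes tested, and calls were made at 0.05. A 3-level model gave contrasts with each control set. CPM use the table total and the TMM factor, and the intervals cover counting error only. DESeq2 1.42.0, limma-voom (limma 3.58.1), other scaling factors, no filter, single control sets and leaving out each library were alternatives, and the GC and length offset was added after seeing the data. Ratios use a pseudocount of 0.5. The scripts were tested on 1 set of simulated data with the depths of these libraries. Of 100 genes given a true log2 fold change of size 1, 11% were recovered, and of 100 given size 2, 63%. Of all calls in the simulated data 3.9% were false.

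All members are named, with the called genes of each further list and up to 3 others by smallest p. Members and lists were chosen with earlier results of these data known. Gene positions and exon overlap are from GENCODE M21 (GRCm38), which has the mm10 coordinates.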

Additional observations from a re-analysis of the deposited data

Results flagged for a closer look

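Il1rn in control replicate 2 stood apart from the other controls, at 54.8 CPM (191 counts) with the nearest control at 69.5 CPM. The gap was 0.951 of the range of the 4 controls, above the critical value of 0.829. Of 12 control groups of values examined, 1 was marked, and chance marks about 1 in 20.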

How the results depend on the processing

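The count of 1 called member was 0 with no filter on low counts and ranged from 0 to 1 when 1 library was left out, with 0 without Commd10-deficient replicate 1, 2 or 3; with control set 2 alone it was 2. With no filter the median log2 fold change of the 3412 genes of the main fit moved to -0.28 from -0.05. That of Il1b was 0.76 there (edgeR adjusted p = 0.0909). Of all calls with no filter 211 were higher and 303 lower, against 118 and 88 in the main fit. The 206 calls over all genes became 514 with no filter, 372 in DESeq2, 697 with control set 2 alone, 576 with control set 1 alone and 111 with the GC and length offset, and limma-voom called 166 higher and 34 lower. Over 15 alternatives Il1b ran from 0.76 to 1.10 (adjusted p from 9.9e-05 to 0.151), Il1a from 0.23 to 1.18, Gsdmd from -0.75 to -0.30 and Ninj1 from 0.30 to 1.28, each with its sign kept. Ninj1 was called with control set 2 alone (1.28, adjusted p = 8.9e-05). Il18 turned to 0.93 with control set 2 alone, 0.10 without control replicate 2 and 0.07 without Commd10-deficient replicate 2, and ran from -0.46 to 0.10 when 1 library was left out. Il1rn was -0.14 with the GC and length offset. Aim2 was -0.09 with no filter, -0.05 with control set 2 alone, -0.44 with the GC and length offset, -0.00 without control replicate 2 and -0.49 without Commd10-deficient replicate 3, and ran from -0.49 to 0.43 when 1 library was left out. The log2 ratio of Il1b to Il18 was -0.01 with control set 2 alone. The 7 other pathway calls became 12 with control set 2 alone, 3 with the GC and length offset, and from 0 to 8 when 1 library was left out (0 without Commd10-deficient replicate 1 or 2 and 1 without replicate 3). In the 3-level model with no filter 0 members were called against control set 1. The cause of these shifts was not tested. No paired analysis was possible because replicates were numbered by accession order, which pairs no libraries.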
